A study of Homo sapiens with 8 samples.

Results

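Nuclear-encoded respiratory chain genes were examined in PANC-1 cells, a long-established line from a human pancreatic ductal adenocarcinoma, after BARD1 was silenced. They were taken from the table of gene counts by symbol, from the protein-coding genes off the mitochondrial chromosome. The rule took SDHA, SDHB, SDHC and SDHD, and names that begin with UQCR or ATP5. It also took names that begin with NDUFA, NDUFB, NDUFC, NDUFS or NDUFV followed by a digit. From COX4 to COX8 it took names in which A, B or C comes next. That gave 88 of the 58735 genes in the table, 39 under complex I, 4 under complex II, 9 under complex III, 15 under complex IV and 21 under complex V. BARD1 is the partner of BRCA1 in a ubiquitin ligase used in homologous recombination repair. The siBARD1 libraries came from PANC-1 cells transfected with BARD1 siRNA (4 libraries, genotype given as BARD1 knockdown), and the control libraries from the same line transfected with scrambled SCR siRNA (siSCR, 4 libraries, genotype given as WT). Both groups carried an siRNA for 48 h, and replicates were numbered 1, 3, 4 and 5 in each. The knockdown was transient, in 1 line, and how many siRNA sequences were used is not given in the sources used here. The labels do not say that replicates were separate cultures, so the spread behind every p-value may be only technical.

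The respiratory chain sits in the inner mitochondrial membrane. Complexes I and II pass electrons from NADH and succinate to ubiquinone, complex III passes them on to cytochrome c, and complex IV gives them to oxygen; complexes I, III and IV pump protons, and complex V (ATP synthase) makes ATP as the protons flow back. Most subunits are encoded in the nucleus and imported, while a small set of core subunits of complexes I, III, IV and V is encoded by mitochondrial DNA. The factors NRF1, GABPA (of the ETS family) and YY1 are known regulators of the nuclear genes.

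A name rule takes genes by symbol, not by place in the complex. NDUFA4, now counted with complex IV, and its relative NDUFA4L2 stayed under complex I. ATP5IF1, an inhibitor of ATP synthase, COX7A2L, a factor for supercomplexes, ATP5S, a coupling factor, and UQCRHL, a retrogene copy of UQCRH, were included by name. CYC1, CYCS, COX4I1 and NDUFAB1, which are subunits or carriers of the chain, do not match the rule and are described with the related lists.

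Promoters are shown for 5 members, as examples, because regulators of this kind act at promoters. Binding was not measured. Each promoter runs from 250 bases before to 50 after the RefSeq start (GRCh38.p14), read along the gene's own strand. Capitals mark matches to the motifs of NRF1 (GCGCA, any base, GCGC), ETS factors (CCGGAAG) and YY1 (AA, any base, ATGGCG, any base, C), searched on both strands. NDUFA8 (chr9:122159730-122160029, minus strand), COX6A1 (chr12:120437863-120438162, plus strand), NDUFS6 (chr5:1801157-1801456, plus strand) and ATP5MC1 (chr17:48892537-48892836, plus strand) fell after knockdown, and UQCRC1 (chr3:48609597-48609896, minus strand) did not pass the test.
NDUFA8 promoter: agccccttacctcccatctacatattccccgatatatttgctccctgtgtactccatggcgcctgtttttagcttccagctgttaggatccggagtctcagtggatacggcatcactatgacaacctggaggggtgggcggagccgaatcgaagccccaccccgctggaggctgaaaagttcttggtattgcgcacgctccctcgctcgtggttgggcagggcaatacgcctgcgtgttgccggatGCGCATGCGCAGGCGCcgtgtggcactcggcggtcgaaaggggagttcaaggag
COX6A1 promoter: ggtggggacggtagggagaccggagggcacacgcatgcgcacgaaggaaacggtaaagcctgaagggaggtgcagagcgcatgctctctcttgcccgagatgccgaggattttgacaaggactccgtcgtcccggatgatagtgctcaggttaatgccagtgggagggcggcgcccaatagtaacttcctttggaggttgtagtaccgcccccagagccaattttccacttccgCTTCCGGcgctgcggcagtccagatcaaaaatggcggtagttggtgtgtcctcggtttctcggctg
NDUFS6 promoter: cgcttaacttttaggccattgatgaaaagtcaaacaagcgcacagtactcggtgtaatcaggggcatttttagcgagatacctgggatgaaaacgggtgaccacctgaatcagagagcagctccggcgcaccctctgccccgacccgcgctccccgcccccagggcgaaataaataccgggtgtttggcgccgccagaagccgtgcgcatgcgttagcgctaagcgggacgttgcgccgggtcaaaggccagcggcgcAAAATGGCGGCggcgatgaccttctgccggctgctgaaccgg
ATP5MC1 promoter: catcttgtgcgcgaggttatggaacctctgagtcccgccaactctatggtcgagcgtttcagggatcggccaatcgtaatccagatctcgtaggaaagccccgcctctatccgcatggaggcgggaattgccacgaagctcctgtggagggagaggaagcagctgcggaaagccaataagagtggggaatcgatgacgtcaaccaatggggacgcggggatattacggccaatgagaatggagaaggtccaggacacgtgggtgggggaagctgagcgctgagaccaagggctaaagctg
UQCRC1 promoter: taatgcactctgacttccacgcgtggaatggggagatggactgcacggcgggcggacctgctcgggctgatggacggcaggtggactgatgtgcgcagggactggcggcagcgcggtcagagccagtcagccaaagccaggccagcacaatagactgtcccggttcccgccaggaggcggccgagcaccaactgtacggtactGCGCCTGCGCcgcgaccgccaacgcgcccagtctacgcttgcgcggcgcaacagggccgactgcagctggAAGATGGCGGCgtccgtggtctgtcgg
NDUFA8 held a pair of overlapping NRF1 matches, COX6A1 an ETS match on the opposite strand, NDUFS6 a YY1 match shortly after its start site, and UQCRC1 both an NRF1 and a YY1 match. ATP5MC1, the member with the largest fall, held none of the 3 letter strings in this window. The examples do not stand for the members as a whole. Of the 17 members that fell and had a listed promoter, 47.1% held at least 1 of the motifs, and 5.9% held the YY1 motif.

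The siRNA target was reduced in every siBARD1 library. BARD1 (ENSG00000138376) stood at 3.27, 2.91, 3.34 and 2.47 CPM (its count relative to the scaled library total) in siBARD1 libraries 1, 3, 4 and 5, against 17.3, 22.2, 17.8 and 20.8 CPM in the siSCR libraries in the same order, which is kept below. The log2 fold change was -2.69 (SE 0.12, edgeR adjusted p = 7.41e-11), so that 15.4% of the transcript remained. Library totals ran from 17816547 to 28590710 counts. On principal components the first (46.1% of variance) separated the groups, and the second (15.5%) set siSCR library 1 apart from the other 7. The ductal line markers KRT7, KRT8, KRT18, KRT19 and VIM were all detected, with KRT7 low, at 1.09 to 2.44 CPM. Their summed level was 4446.5 to 5790.0 CPM in siBARD1 and 7134.4 to 9097.6 CPM in siSCR, so these markers also moved with the groups; their part in the results was not tested. Of the markers of acinar, endocrine, leukocyte and endothelial cells, 0 reached 1 CPM in any group, and of the fibroblast markers COL1A1 did (77.5 to 85.9 CPM in siBARD1 and 81.9 to 125 CPM in siSCR) while DCN and LUM were at 0.

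The nuclear respiratory chain genes were slightly lower in siBARD1, and 21 of the 80 members tested fell. None rose in the edgeR fit. The falls were modest, the largest being ATP5MC1 at 67.6% of its siSCR level, and they were spread over all 5 complexes. Complexes II and III held 1 fall each, and both calls were lost with upper-quartile or total-count scaling. Most members, 59 of 80, did not pass the test. The other 8 members had too few counts to be tested: COX6A2, COX7A1, COX7B2, COX8C, ATP5MGL, NDUFA7 and the read-through genes ATP5MF-PTCD1 and NDUFC2-KCTD14 had at most 15 counts in any library.

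A member was called when its adjusted p was under 0.05 (edgeR quasi-likelihood test, Benjamini-Hochberg adjustment over all 15287 genes tested). In that fit 38.9% of all genes tested were called, 20.0% lower and 18.9% higher, against 26.2% of members, all of them lower. The members' share called lower was thus somewhat above the background for that direction, and their share called in either direction was below it. Among genes with an average log2 CPM of at least 5, 53.9% were called and 29.7% were lower, and of the 62 members at that level 16 (25.8%) were lower. At an unadjusted p under 0.05, 37 members were lower and 1 was higher, beside 3646 lower and 3582 higher of all 15287 genes tested. DESeq2 called 24 lower and 0 higher, limma-voom 20 and 0, and limma on FPKM 19 and 0. The share of all genes called lower was 20.2% in DESeq2, 19.6% in limma-voom and 19.3 to 19.4% in limma on FPKM. The scaling mattered for rises, since upper-quartile and total-count scaling each called SDHA and NDUFS1 higher. With total-count scaling 59.3% of all calls were higher, against 48.6% in the main fit.

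The estimates leaned one way. Of 80 log2 fold changes 70 were negative and 10 positive, with a median of -0.12, against 0.00 over all genes tested, and a range of -0.57 to 0.32. For 23 members every siBARD1 library lay below every siSCR library, a pattern found in 18.4% of all genes tested, and for 2 members (SDHA and NDUFS1) every siBARD1 library lay above, found in 17.7% of all genes. The median standard error was 0.0665 for members and 0.0859 for all genes. Members were shorter than other genes, with a median exonic length of 2633.5 bases against 4574.0, and 49 of 80 lay among the shortest 5095 of the genes tested. Among those 28.6% of members and 19.5% of all genes were called lower, and the median log2 fold change was -0.15 for members and -0.05 for all genes. An offset for gene length left 17 members lower and 0 higher, with 20.1% of all genes lower.

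**Figure D1:**
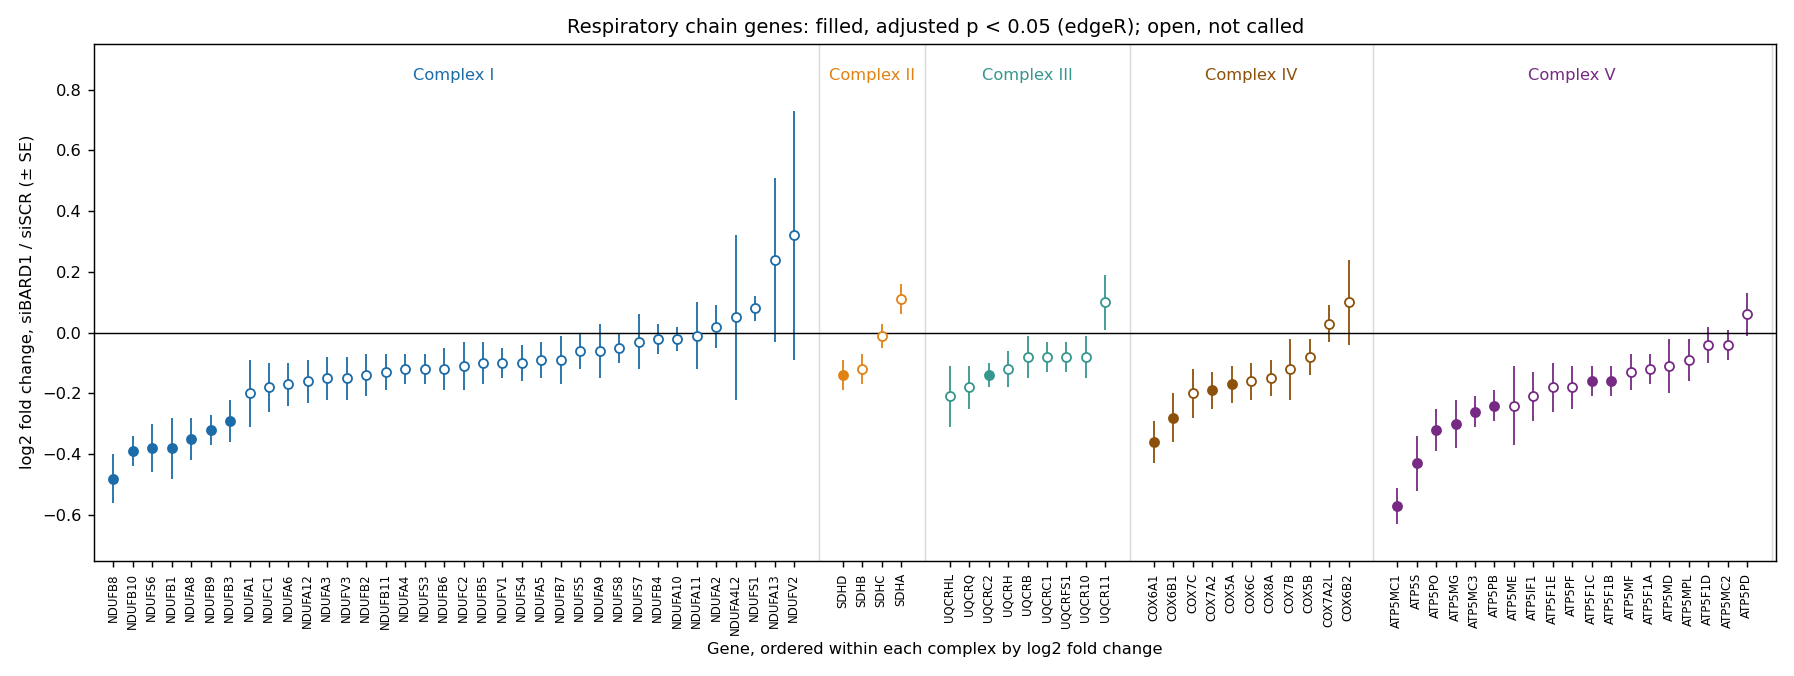
Log2 fold change of the tested members but 1, siBARD1 over siSCR, with bars of 1 SE from edgeR, grouped by complex and ordered within it; filled points have an adjusted p under 0.05. All 21 filled points lie below 0, down to -0.57 for ATP5MC1, and the widest bars belong to the scarcely counted NDUFV2 and NDUFA13.

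Complex I takes electrons from NADH through 7 conserved nuclear-encoded core subunits, around which sit many accessory subunits. Of 37 members tested, 7 fell (18.9%, near the 20.0% of all genes tested that were lower), and all 7 were accessory subunits. Among the 7 core subunits 0 were called, and 1 was lower at an unadjusted p under 0.05; DESeq2 and limma-voom also called 0, and limma on FPKM called NDUFS3 lower. By name, 5 of 11 NDUFB members (accessory subunits of the membrane arm), 1 of 13 NDUFA and 1 of 8 NDUFS members fell. Whether core and accessory subunits, or these name groups, differ was not tested.

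NDUFB8 stood at 14.2, 16.8, 17.7 and 17.7 CPM in siBARD1, against 23.2, 23.4, 22.7 and 23.7 CPM in siSCR. The siSCR libraries were tightly grouped and siBARD1 library 1 was the lowest, with no overlap between groups (log2 fold change -0.48, SE 0.08, edgeR adjusted p = 0.000158). Other same-strand genes cover 33.8% of its exonic bases, so its count is less certain. NDUFB10 had 96.4, 95.6, 92.9 and 92.2 CPM in siBARD1, against 124, 136, 116 and 119 CPM in siSCR. Here the siBARD1 libraries were the tighter group, all below the lowest siSCR library (-0.39, SE 0.05, edgeR adjusted p = 2.18e-05). NDUFB1 stood at 14.2, 15.7, 12.9 and 17.8 CPM in siBARD1, against 19.0, 21.2, 19.8 and 18.6 CPM in siSCR. Its siBARD1 library 5 came within 1 CPM of siSCR library 5 (-0.38, SE 0.10, edgeR adjusted p = 0.00489). NDUFB9 and NDUFB3 also fell without overlap, with log2 fold changes of -0.32 and -0.29. Genes on the opposite strand cover 21.0% of the exonic bases of NDUFB9.

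NDUFS6, an accessory subunit of the matrix arm, had 55.9, 59.1, 66.7 and 68.8 CPM in siBARD1, against 74.3, 94.7, 76.4 and 80.1 CPM in siSCR. Library 3 stood highest in siSCR, and the groups did not overlap (-0.38, SE 0.08, edgeR adjusted p = 0.00220). NDUFA8, an accessory subunit of the membrane arm, had 28.6, 31.8, 31.1 and 34.1 CPM in siBARD1, against 39.0, 43.9, 38.8 and 38.7 CPM in siSCR, again without overlap (-0.35, SE 0.07, edgeR adjusted p = 0.000666).

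Most core subunits lay close to their control levels. NDUFS1, which carries iron-sulfur clusters, had 231, 236, 238 and 246 CPM in siBARD1, against 226, 231, 219 and 226 CPM in siSCR. The groups met at 231 CPM after rounding without overlapping, and the difference did not pass (0.08, SE 0.04, edgeR adjusted p = 0.177). NDUFS3 was lower in every siBARD1 library and did not pass either (-0.12, SE 0.05, edgeR adjusted p = 0.0725). NDUFV1, the NADH-binding subunit, had a log2 fold change of -0.10, NDUFS8 of -0.05 and NDUFS7 of -0.03, all with overlapping groups. Opposite-strand genes cover 49.1% of the exonic bases of NDUFS7. The core subunit NDUFV2 was counted at only 0.290 to 1.22 CPM over all libraries; other same-strand genes cover 28.4% of its exonic bases, and its 1 named pseudogene took more counts than the gene, so its value says little. NDUFA13 (21.0% shared) was likewise low, with means of 1.62 CPM in siBARD1 and 1.36 CPM in siSCR.

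Complex II, the link to the citric acid cycle, has 4 subunits, all nuclear. SDHA, the flavoprotein that oxidises succinate, had 192, 182, 186 and 193 CPM in siBARD1, against 182, 179, 166 and 171 CPM in siSCR. The groups met at 182 CPM after rounding, with siBARD1 above, and the difference did not pass (0.11, SE 0.05, edgeR adjusted p = 0.0729); without siSCR library 1 it did (0.13, adjusted p = 0.0385). SDHA has named pseudogenes whose counts came to 11.44% of its own. SDHD, a membrane anchor, had 121, 106, 118 and 119 CPM in siBARD1, against 135, 128, 126 and 123 CPM in siSCR. It fell by the narrowest margin of any member (-0.14, SE 0.05, edgeR adjusted p = 0.0491), and the call was lost without any one of 6 of the 8 libraries (adjusted p up to 0.192, without siBARD1 library 3); it held without siBARD1 library 1 or siSCR library 5. It was also lost with upper-quartile or total-count scaling, the gene length offset, either other low-count filter, limma-voom or limma on FPKM, with adjusted p between 0.0505 and 0.196. SDHB, the iron-sulfur subunit, was not called (-0.12, SE 0.05, edgeR adjusted p = 0.0789). It was called lower without siSCR library 5 (-0.15, adjusted p = 0.0397) and with the replicate block (adjusted p = 0.0488). SDHC, the other anchor, had a log2 fold change of -0.01 (95% interval, estimate ± 1.96 SE, -0.10 to 0.08).

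In complex III, 1 of 9 members fell (11.1%, beside 20.0% of all genes). UQCRC2, a core protein, had 254, 268, 263 and 266 CPM in siBARD1, against 295, 298, 275 and 291 CPM in siSCR. The groups did not overlap (-0.14, SE 0.04, edgeR adjusted p = 0.0188), but the call was lost without siBARD1 library 1, the lowest (-0.12, adjusted p = 0.0548). It was also lost with upper-quartile scaling (adjusted p = 0.0699), total-count scaling (0.101) or no low-count filter (0.0789). Its partner UQCRC1 had 169, 183, 176 and 176 CPM in siBARD1, against 187, 202, 177 and 178 CPM in siSCR, and was not called (-0.08, SE 0.05, edgeR adjusted p = 0.242). UQCRFS1, the Rieske iron-sulfur protein, had the same estimate of -0.08 and overlapping groups. The other 6 ranged from -0.21 (UQCRHL) to 0.10 (UQCR11). Without siSCR library 1 or siSCR library 5, 2 members of complex III were lower, and without siBARD1 library 1 there were 0.

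Complex IV passes electrons to oxygen through mitochondrially encoded core subunits, and its nuclear subunits surround that core. Of 11 members tested, 4 fell (36.4%, beside 20.0% of all genes and 29.7% of genes with an average log2 CPM of at least 5). COX6A1, the widely expressed form of subunit 6A, had 49.3, 47.4, 57.3 and 59.1 CPM in siBARD1, against 71.1, 69.1, 65.0 and 68.9 CPM in siSCR, with siBARD1 libraries 1 and 3 the lowest (-0.36, SE 0.07, edgeR adjusted p = 0.000507). Its muscle form COX6A2 had at most 3 counts in a library. COX6B1, which faces the intermembrane space, had 134, 161, 149 and 147 CPM in siBARD1, against 170, 211, 175 and 163 CPM in siSCR (-0.28, SE 0.08, edgeR adjusted p = 0.0110). Groups did not overlap, with 161 CPM in siBARD1 library 3 next to 163 CPM in siSCR library 5.

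COX7A2, the widely expressed form of subunit 7A, had 115, 126, 119 and 126 CPM in siBARD1, against 137, 160, 133 and 128 CPM in siSCR (-0.19, SE 0.06, edgeR adjusted p = 0.0239). COX5A had 111, 120, 118 and 121 CPM in siBARD1, against 134, 147, 124 and 124 CPM in siSCR (-0.17, SE 0.06, edgeR adjusted p = 0.0259). Both calls were lost without siBARD1 library 1, without siBARD1 library 4 or without siSCR library 3, with adjusted p between 0.0550 and 0.0876. They were also lost with upper-quartile scaling, total-count scaling, the gene length offset or limma on FPKM, with adjusted p up to 0.116. The count for complex IV was 2 without siBARD1 library 1 or siSCR library 3, and 6 without siSCR library 4 or siSCR library 5. COX7A2L, related to COX7A2 by sequence, had a log2 fold change of 0.03 (95% interval -0.08 to 0.14). COX5B was not called (-0.08), nor was COX7C (-0.20, SE 0.08, edgeR adjusted p = 0.0634), which was called without siSCR library 4 or siSCR library 5. COX7C was also called lower with DESeq2 (adjusted p = 0.0436), the replicate block (0.0281) or no low-count filter (0.00562). NDUFA4, counted with complex IV today, was not called (-0.12, edgeR adjusted p = 0.0655). It was called lower without siSCR library 4 (-0.15, adjusted p = 0.0473) and with the replicate block (adjusted p = 0.0345).

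Complex V had the largest number of falls, 8 of 19 members tested, with a median log2 fold change of -0.18. That was 42.1%, beside 20.0% of all genes and 29.7% of genes with an average log2 CPM of at least 5. Whether the complexes differ was not tested. The F1 head makes ATP at its beta subunits, the membrane ring of c subunits turns with the protons, and a peripheral stalk holds the head still. Falls were found in each of these: ATP5F1B and ATP5F1C in the head, ATP5MC1 and ATP5MC3 in the ring, ATP5PB and ATP5PO in the stalk.

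ATP5F1B, the beta subunit, was the most abundant member per unit length, at 521 ± 18.3 FPKM in siBARD1 and 585 ± 23.1 FPKM in siSCR (SD, n = 4 each). In CPM it stood at 1158.0, 1247.3, 1237.5 and 1236.4 in siBARD1, against 1366.3, 1434.9, 1337.2 and 1320.1 in siSCR, with no overlap (-0.16, SE 0.05, edgeR adjusted p = 0.0134). Without siBARD1 library 1, the lowest, the call was lost (-0.14, adjusted p = 0.0515), as it was with total-count scaling, the gene length offset or limma on FPKM (adjusted p up to 0.0813). ATP5F1C, the gamma shaft, had 117, 119, 124 and 122 CPM in siBARD1, against 135, 144, 136 and 124 CPM in siSCR. Library 5 of siSCR overlapped the siBARD1 range (-0.16, SE 0.05, edgeR adjusted p = 0.0179), and the call was lost without siBARD1 library 3 (adjusted p = 0.0509) or siSCR library 3 (0.0567), and with upper-quartile scaling, total-count scaling or the gene length offset (up to 0.0898). The alpha subunit ATP5F1A was below its siSCR level in every library and was not called (-0.12, edgeR adjusted p = 0.0596). It was called lower without siSCR library 5 (adjusted p = 0.0349), with DESeq2 (0.0388) and with the gene length offset (0.00377). The replicate block (0.0418) and a fit of protein-coding nuclear genes only (0.0484) also called it lower. ATP5F1E, the epsilon subunit, was not called at -0.18. It was called without siSCR library 5 (adjusted p = 0.0276) and with no low-count filter (0.0247). Genes on the opposite strand cover 23.2% of its exonic bases. ATP5F1D, the delta subunit, was at -0.04.

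ATP5PO, the stalk subunit that grips the head, had 24.7, 26.2, 28.9 and 27.0 CPM in siBARD1, against 33.0, 35.9, 32.2 and 32.0 CPM in siSCR, with no overlap (-0.32, SE 0.07, edgeR adjusted p = 0.00153). ATP5PB, the long stalk subunit b, had -0.24 (SE 0.05) and ATP5MG, a small membrane subunit, -0.30 (SE 0.08), the second with overlapping groups. ATP5S had 13.4, 12.2, 14.7 and 14.6 CPM in siBARD1, against 16.8, 18.4, 20.0 and 18.7 CPM in siSCR (-0.43, SE 0.09, edgeR adjusted p = 0.000924). Genes on the opposite strand cover 20.1% of its exonic bases, and whether counting used strand is not given in the sources used here. ATP5PD, another stalk subunit, was at 0.06, the highest estimate in the complex.

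**Figure D2:**
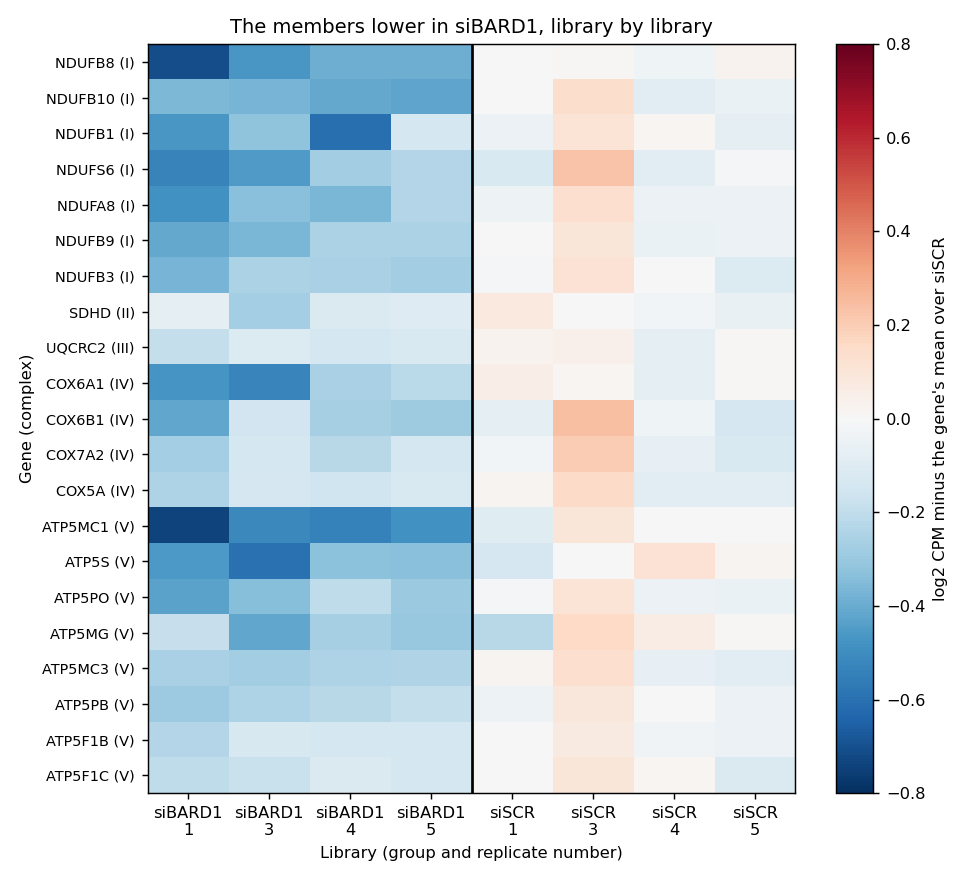
Log2 CPM of the 21 members that fell, in each library, minus the gene's mean over siSCR; siBARD1 libraries are left of the line and siSCR libraries right of it. The deepest colours are in ATP5MC1 and NDUFB8 in siBARD1 library 1, and siSCR library 3 is above the siSCR mean for most of these genes.

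Subunit c is made from 3 nuclear genes that encode the same mature protein behind different import signals, and 2 of the 3 fell. ATP5MC1 (ENSG00000159199; chromosome 17, 48892765 to 48895871, plus strand, GRCh38) had 92.4, 108, 106 and 110 CPM in siBARD1, against 144, 165, 154 and 154 CPM in siSCR. Its highest siBARD1 library was far below its lowest siSCR library (log2 fold change -0.57, SE 0.06, 95% interval -0.68 to -0.45, edgeR adjusted p = 1.28e-06). ATP5MC3 had 161, 159, 162 and 163 CPM in siBARD1, against 196, 211, 184 and 181 CPM in siSCR, also without overlap (-0.26, SE 0.05, edgeR adjusted p = 0.000696). ATP5MC2 had 177, 183, 178 and 191 CPM in siBARD1, against 189, 198, 183 and 178 CPM in siSCR. Its groups overlapped and it was not called (-0.04, 95% interval -0.13 to 0.06, edgeR adjusted p = 0.575).

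On the length-scaled FPKM values the order of the 3 genes differed between groups. ATP5MC1 stood at 39.5 ± 3.02 FPKM in siBARD1 and 58.6 ± 3.31 FPKM in siSCR, ATP5MC2 at 45.3 ± 1.46 and 46.7 ± 2.33 FPKM, and ATP5MC3 at 23.6 ± 0.271 and 28.3 ± 2.05 FPKM in the same groups (SD, n = 4 each). ATP5MC1 was the highest of the 3 in every siSCR library, and ATP5MC2 in every siBARD1 library. The share of ATP5MC1 in the summed FPKM of the family was 34.2, 37.3, 37.1 and 37.0% in siBARD1, against 41.9, 43.8, 44.6 and 45.2% in siSCR. The share of ATP5MC2 was 41.9 ± 0.827% in siBARD1 and 34.9 ± 0.804% in siSCR, and that of ATP5MC3 21.8 ± 0.842% and 21.2 ± 0.723% in the same groups (SD, n = 4 each). The difference between paralogs was described, not tested, and FPKM here uses the union of all annotated exons as the length, which need not be the expressed form.

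**Figure D3:**
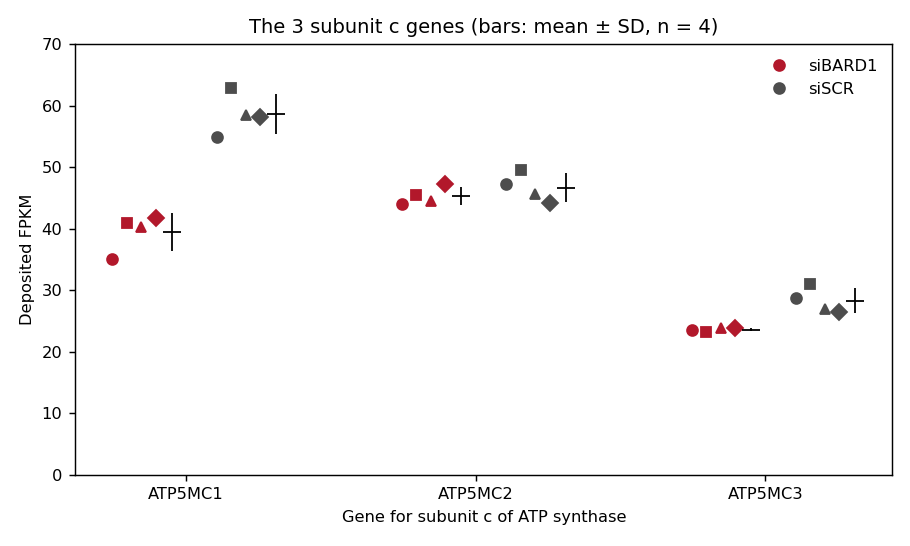
Deposited FPKM of the 3 subunit c genes in each library, siBARD1 left of siSCR for each gene, with marker shapes for the replicate number (circle 1, square 3, triangle 4, diamond 5) and the mean ± SD (n = 4) beside the points. ATP5MC1 lies between 35.0 and 41.7 in siBARD1 and between 54.9 and 62.9 in siSCR, while the ATP5MC2 groups overlap.

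Other paralogs showed 1 dominant form in these cells. COX6A1 made up 99.8 ± 0.212% of the summed COX6A FPKM in siBARD1 and 99.9 ± 0.196% in siSCR, and NDUFA4 made up 98.8 ± 0.223% and 98.9 ± 0.348% beside NDUFA4L2 in the same groups (SD, n = 4 each). COX7A2 took 78.0 ± 0.635% of the COX7A sum in siBARD1 and 80.4 ± 0.863% in siSCR, nearly all of the remainder being COX7A2L. Levels per unit length spanned a wide range within each complex. After ATP5F1B the highest members were COX8A (258 ± 21.4 FPKM in siBARD1 and 287 ± 17.4 FPKM in siSCR) and NDUFS5 (272 ± 6.28 and 284 ± 30.4 FPKM in the same groups), which did not differ from each other beyond their spread. Other same-strand genes cover 34.5% of the exonic bases of COX8A, so its level is less certain. Within complex I, NDUFB10 followed NDUFS5 in siSCR, at 87.4 ± 1.89 FPKM in siBARD1 and 115 ± 8.45 FPKM in siSCR.

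Summed over members, the share of all counts, taken on unscaled library totals, overlapped between groups. It was 0.798, 0.836, 0.841 and 0.859% in siBARD1 libraries 1, 3, 4 and 5, against 0.881, 0.942, 0.858 and 0.854% in siSCR. Library 1 was lowest in siBARD1 and library 3 highest in siSCR. On the scaled totals used for CPM, the members' median log2 deviation from their siSCR mean did not overlap between groups. It was -0.19, -0.13, -0.12 and -0.09 in siBARD1, against -0.01, 0.11, -0.03 and -0.07 in siSCR. Of the complexes, V was the one whose unscaled shares did not overlap, at 0.284, 0.297, 0.300 and 0.306% in siBARD1, against 0.321, 0.340, 0.315 and 0.312% in siSCR. Complex II overlapped, at 0.0583 to 0.0617% in siBARD1 and 0.0569 to 0.0610% in siSCR. In bulk RNA, fewer cells with a transcript and less of it per cell cannot be told apart.

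**Figure D4:**
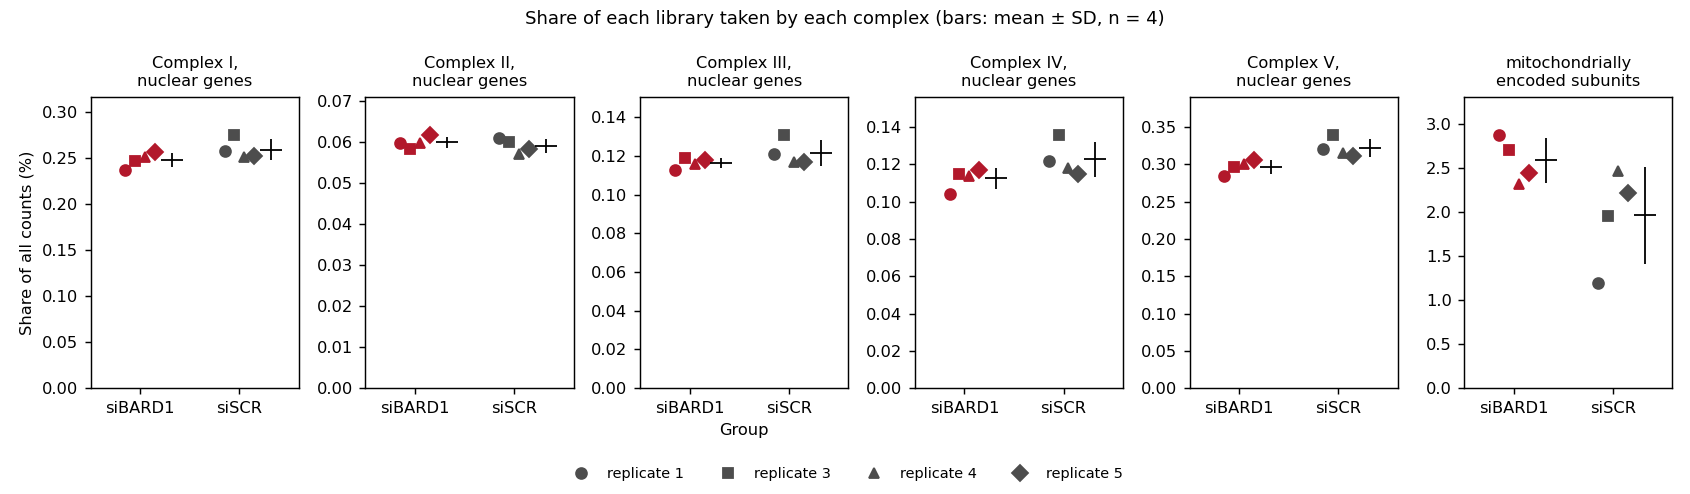
Share of all counts, in percent, taken by the nuclear genes of each complex and by the mitochondrially encoded subunits, for each library, siBARD1 left of siSCR; marker shapes give the replicate number and bars the mean ± SD (n = 4). On these unscaled totals complex V does not overlap between groups, and the mitochondrially encoded share is lowest, 1.20%, in siSCR replicate 1.

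None of the 13 subunits encoded by mitochondrial DNA was called in either direction. Their summed share of counts was 2.88, 2.71, 2.32 and 2.44% in siBARD1, against 1.20, 1.96, 2.47 and 2.22% in siSCR. siSCR library 1 was far lower than the rest, and the groups overlapped. In edgeR 0 of 13 were called, with 0 lower and 1 higher at an unadjusted p under 0.05; DESeq2 called 1 higher, limma-voom 2 and limma on FPKM 0. All 13 estimates were positive, from 0.08 to 0.54 with a median of 0.36, and their median SE was 0.216, against 0.0665 for the nuclear members. Without siSCR library 1 or siBARD1 library 4, 1 was called higher, and without siSCR library 4, 2 were. With the gene length offset or no low-count filter 1 was called higher too.

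Of the 18 complex I assembly factors tested, 10 fell (55.6%, beside 20.0% of all genes; the difference was not tested) and 0 rose (1 higher at an unadjusted p under 0.05, 0 in DESeq2, limma-voom and limma on FPKM; 1 rose when siBARD1 library 1 was left out). With upper-quartile scaling, total-count scaling or the gene length offset 1 also rose. So did 1 with a filter of at least 1 CPM in 4 libraries, or in a fit of protein-coding nuclear genes only. The median log2 fold change of these factors was -0.26. ECSIT, which helps build the membrane arm, had 21.3, 26.8, 24.1 and 22.2 CPM in siBARD1, against 38.8, 40.0, 41.2 and 39.2 CPM in siSCR (-0.75, SE 0.07, edgeR adjusted p = 5.96e-07). NDUFAF8 (-0.68) and NDUFAF4 (-0.60) also fell without overlap. Of the 31 assembly factors of complexes II to V, 9 fell and 2 rose, with a median of -0.12. Of all genes tested, 20.0% were lower. The share called in either direction was 35.5% for the factors of complexes II to V, beside 38.9% of all genes tested. BCS1L, which inserts the Rieske protein into complex III, fell (-0.60, SE 0.14, edgeR adjusted p = 0.00653). Its level was 20.1, 22.8, 23.0 and 21.6 CPM in siBARD1, against 22.7, 36.8, 37.5 and 36.5 CPM in siSCR, where library 1 sat within the siBARD1 range. COX19, a copper-handling factor for complex IV, rose (0.28, SE 0.09, edgeR adjusted p = 0.0206), a call that was lost without siBARD1 library 5, siSCR library 1 or siSCR library 5, and with limma on FPKM at a pseudocount of 1 (adjusted p = 0.0520); 21.4% of its exonic bases belong also to same-strand genes. The number of these factors that rose was 0 without siBARD1 library 5, 1 without siBARD1 library 4, siSCR library 3 or siSCR library 4, and 3 without siBARD1 library 1 or siBARD1 library 3. It was 5 with upper-quartile scaling, total-count scaling or the gene length offset.

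The 4 tested subunits and carriers outside the name rule gave 3 falls (75.0%, beside 20.0% of all genes) and 0 rises. Rises were also 0 at an unadjusted p under 0.05 and in DESeq2, limma-voom and limma on FPKM. CYC1, the cytochrome c1 of complex III, had 208, 234, 238 and 234 CPM in siBARD1, against 310, 317, 286 and 294 CPM in siSCR (-0.40, SE 0.05, edgeR adjusted p = 1.49e-05). COX4I1, of complex IV, and CYCS, cytochrome c itself, fell by 0.27 and 0.26 on the log2 scale. NDUFAB1, an acyl carrier protein of complex I, was at -0.14 and was not called.

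Of 11 transcriptional regulators tested, 3 fell (27.3%, beside 20.0% of all genes) and 0 rose, with a median of -0.15. At an unadjusted p under 0.05, 1 was higher, and in DESeq2, limma-voom and limma on FPKM 0 rose. Without siBARD1 library 3 or siSCR library 1, 1 rose. With upper-quartile or total-count scaling, either other low-count filter or a fit of protein-coding nuclear genes only, 1 also rose. TFB1M, a ribosomal RNA methyltransferase of mitochondria, had 13.3, 15.4, 14.0 and 16.2 CPM in siBARD1, against 26.7, 22.8, 22.1 and 24.2 CPM in siSCR (-0.70, SE 0.09, edgeR adjusted p = 7.27e-06). The nuclear receptor ESRRA (-0.33) and the coactivator PPRC1 (-0.26) were the other members that fell. Of 13 citric acid cycle genes, 4 fell (30.8%, beside 20.0% of all genes) and 2 rose. CS, citrate synthase, which starts the cycle, had 134, 138, 131 and 121 CPM in siBARD1, against 285, 305, 294 and 300 CPM in siSCR, and so kept 44.3% of its level (-1.18, SE 0.05, edgeR adjusted p = 3.25e-11). That estimate lay beyond the range of the respiratory chain members. SUCLA2, a subunit of succinate-CoA ligase, rose (0.20, SE 0.06, edgeR adjusted p = 0.0109), a call lost with the gene length offset (adjusted p = 0.0679).

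Of 16 import, membrane and chaperone genes, 10 fell (62.5%, beside 20.0% of all genes) and 1 rose. VDAC3, a channel of the outer membrane, had 35.4, 35.8, 33.7 and 35.8 CPM in siBARD1, against 58.1, 64.3, 57.9 and 55.5 CPM in siSCR (-0.74, SE 0.06, edgeR adjusted p = 5.89e-08). VDAC1 (-0.50), VDAC2 (-0.34) and the import pore TOMM40 (-0.53) also fell. LONP1, a protease of the matrix, rose, with 171, 190, 194 and 204 CPM in siBARD1, against 159, 156, 155 and 157 CPM in siSCR (0.27, SE 0.05, edgeR adjusted p = 0.000591). Over the 7 related lists, 39 of 106 tested genes fell (36.8%, beside 20.0% of all genes tested) and 5 rose. The share called in either direction was 41.5%, beside 38.9%. Among genes with an average log2 CPM of at least 5, 29.7% were lower and 53.9% were called in either direction. These lists were chosen with earlier results of these data known.

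**Figure D5:**
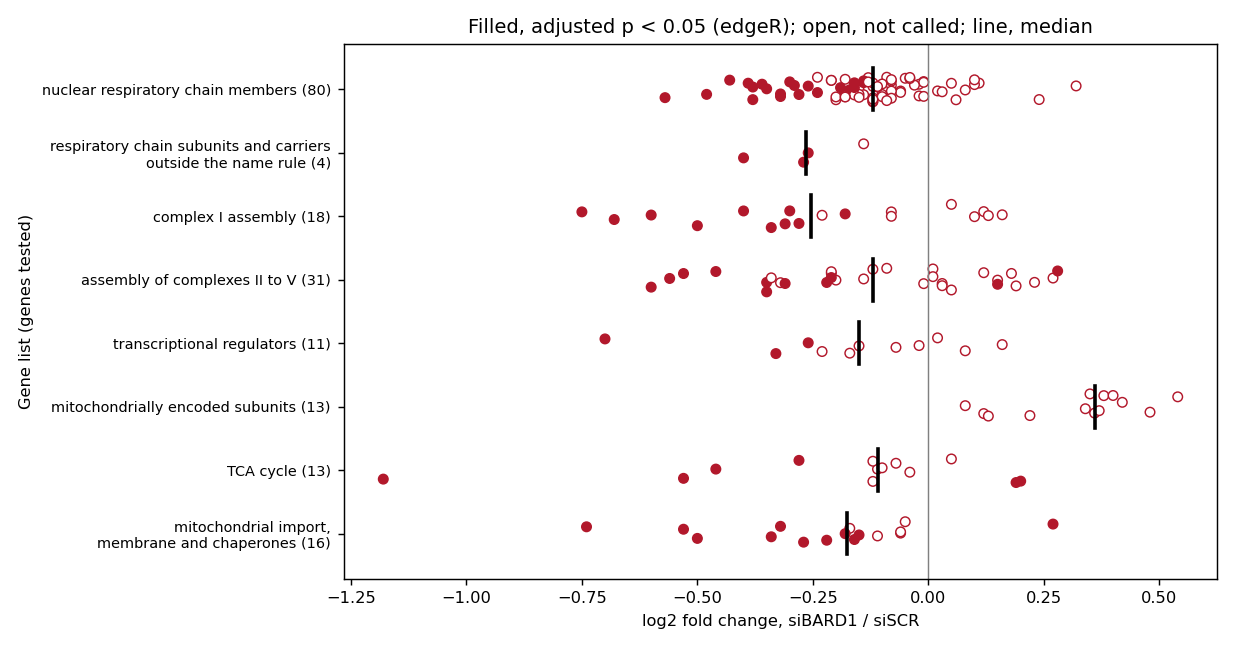
Log2 fold change, siBARD1 over siSCR, of every tested gene in the nuclear respiratory chain and in 7 related lists, with filled points for an adjusted p under 0.05 and a line at each median. The respiratory chain members cluster near their median of -0.12, CS lies alone at -1.18, and the mitochondrially encoded subunits lie above 0 with 0 filled points.

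Promoter motifs were more frequent in members than in protein-coding genes as a whole, and no more frequent in members that fell than in the rest. A first listed RefSeq promoter was found for 67 of the 88 members; 9 had more than 1 listed. The NRF1 motif was in 23.9% of these, against 8.6% of 15843 promoters of protein-coding genes, the ETS motif in 26.9% against 14.2%, and the YY1 motif in 16.4% against 3.3%. At least 1 of the 3 was in 52.2% of members, against 23.2% of protein-coding genes. Among the 17 matched members that fell 47.1% held at least 1, and among the 45 matched members tested and not called 55.6% did. Matches of different motifs overlapped in 0 member promoters. By complex the share ranged from 38.5% of 13 in complex IV to 85.7% of 7 in complex III and 3 of 3 in complex II.

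A 7-base sequence, CTACCAG, was picked out by an earlier search of these data as frequent in transcripts that fell. It was found in 6 of 80 tested members (7.5%), against 24.3% of 12722 protein-coding genes tested and 37.5% of the 2854 of those that fell. The last share comes from the same data in which the sequence was picked. The member transcripts searched were shorter, with a median of 1260 bases against 3283.5. Of the 21 members that fell 2 held the sequence, NDUFB10 and NDUFB8 (9.5%, near the 7.5% of all tested members). The windows are shown, with the 7 bases in capitals, from 1 GENCODE 29 transcript a gene (chromosome 16 for NDUFB10 and chromosome 10 for NDUFB8); all 3 copies lie before the 3′ UTR.
NDUFB10 transcript position 424: aaggacagaaCTACCAGcagaactgta
NDUFB10 transcript position 478: tggccaaggcCTACCAGgaccgctgtg
NDUFB8 transcript position 469: tgtaccctgtCTACCAGcctgtgtgta
ATP5MC1, with the largest fall, held 0 copies. Among the leading genes of the related lists CS and TFB1M held 1 copy in the 3′ UTR, ECSIT, VDAC3 and LONP1 (which rose) 1 copy elsewhere, and CYC1, BCS1L, COX19 and SUCLA2 held 0. Other transcripts of these genes were not searched, and the BCS1L transcript searched had 552 bases, against 3379 exonic bases in the gene. Without the 6 members that hold CTACCAG, 19 of 74 fell and 0 rose.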

How the data were processed

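Polyadenylated RNA from 8 PANC-1 libraries, 4 siBARD1 and 4 siSCR, was sequenced. The authors deposited whole-number counts per gene and FPKM per gene. Per the submitters' processing notes the tools were fastp, HISAT2 (2.0.5) and featureCounts; the sources used here give neither strandedness nor settings. The builds named there are GRCh37 and hg19, but all 58735 gene coordinates in the deposited tables equal GENCODE 29 on GRCh38, which is used here; the alignment build is not settled. In each library the deposited FPKM equalled count over exonic length and total, times a constant of 0.9696 to 1.0307.

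Counts were tested with edgeR 4.0.16 (R 4.3.3): filterByExpr, TMM, a robust quasi-likelihood fit of all 8 libraries without covariates, and Benjamini-Hochberg adjustment over 15287 genes, threshold 0.05. SE is the log2 fold change over the square root of F; CPM uses TMM-scaled totals. The fit was tested on simulated data. No 2 libraries agreed within sampling noise (chi-square per gene 4.26 to 17.68 within groups). Depth was 17816547 to 28590710 counts per library, which leaves genes under about 1 CPM imprecise. Alternatives were other scalings, filters, DESeq2 1.42.0, limma 3.58.1 (voom, and log2 FPKM with a pseudocount of 1 or 0.1), a gene length offset, a replicate block, an adjusted p under 0.01, and each library left out. Promoters are from RefSeq and transcripts from GENCODE 29, the one per gene with the longest 3′ UTR.

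The members, the 7 related lists and the marker lists were chosen with earlier results of these data known. The text names BARD1, the core subunits, the 3 largest called changes per complex and direction, the paralog families and the largest called change per related list and direction; the other members that fell, and the other genes of the related lists that are named, were picked after their values were seen. A gene that this rule covers is not reported here.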

Additional observations from a re-analysis of the deposited data

Results flagged for a closer look

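In 92 groups of 4 libraries checked, 1 library stood far from the other 3 in 7, where chance flags about 1 group in 20. 5 of the 7 were siBARD1 replicate 1, each time the lowest of its group. ATP5F1B stood at 1158.0 CPM there, against 1236.4 to 1247.3 CPM in the other siBARD1 libraries. COX7C stood at 136 CPM in that library and 157 to 161 CPM in the others, and CYC1 at 208 CPM and 234 to 238 CPM. SDHC stood at 139 CPM there and 147 CPM in each of the others, and SUCLA2 at 50.8 CPM and 54.6 to 55.4 CPM. The other 2 were siSCR replicate 1, the library that also stood apart on the second principal component. BCS1L stood at 22.7 CPM there, against 36.5 to 37.5 CPM in the other siSCR libraries, and NDUFA4L2 at 0.752 CPM, against 1.59 to 1.62 CPM. Why these libraries stood apart was not tested.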

How the results depend on the processing

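Under every scaling, filter, tool and left-out library tried, members were called mostly or entirely lower. The number lower ran from 15 of 80 (total-count scaling, where 16.2% of all genes were lower) to 32 of 80 (replicate block, 22.1%). Rises appeared in some: 2 members were higher with upper-quartile and 2 with total-count scaling (SDHA and NDUFS1), and 1 (SDHA) with the replicate block. Leaving out 1 library gave 17 to 29 members lower and 0 to 1 higher, the 1 being SDHA without siSCR replicate 1, where 26 were lower. Of all genes, 17.5% were lower in the fits with 17 members lower, and 18.4% in the fit with 29. The 15 members that fell other than SDHD, UQCRC2, COX5A, COX7A2, ATP5F1B and ATP5F1C were called with any one library left out. At an adjusted p under 0.01 the calls of SDHD, UQCRC2, COX5A, COX7A2, COX6B1, ATP5F1B and ATP5F1C were lost. That left no call in complexes II and III. Leaving out members whose exons overlap other genes over more than 20% of their length, an alternative chosen after seeing the data, left 18 of 65 lower, and leaving out those with CTACCAG, also chosen then, left 19 of 74. In the related lists the number called higher, 5, became 10 with upper-quartile and 10 with total-count scaling, 9 with the gene length offset, 8 with the replicate block and 2 at an adjusted p under 0.01; it was 3 to 7 with 1 library left out, 3 being without siBARD1 replicate 5. Whether the replicate numbers pair the libraries is not settled, and the labels name no shared batch. Deviations of same-numbered libraries correlated at 0.139, 0.129, 0.034 and -0.032, and those of differently numbered libraries at -0.281 to 0.145. Correlations this small and this few cannot decide it. With no low-count filter 19.6% of all genes were called. The cause of these shifts was not tested.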
